A study of Mus musculus with 41 samples.

Results

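Wild-type (WT) mouse embryonic stem cells (ESCs) were compared after 2 h in α-amanitin with cells at 0 h, the start of that treatment. The comparison uses 8 of the 41 samples of the series, taken by their labels: 4 RNA-seq libraries of WT cells at 2 h and 4 of WT cells at 0 h, with their count columns joined on the gene identifier. All 8 come from R1, an established mouse ESC line, and the cells of both groups had first spent 4 days in 1 µM retinoic acid and medium that lacked LIF, the cytokine that holds ESCs in self-renewal. The α-amanitin dose was 2 µg/ml. RNA was made into libraries from total RNA with a stranded mRNA kit, per the labels. Also used for comparison were 4 WT libraries each at 4 h and 8 h and the libraries of Caprin1 knockout (KO) clones 2 and 4 at 2 h and 0 h, grown and treated in the same way. The labels do not say whether the libraries of a group came from separate cultures, so p-values measure the spread between these libraries, which may be technical.

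α-Amanitin is a mushroom toxin that binds RNA polymerase II and blocks its movement along the template, and it enters cultured cells slowly. Messenger RNAs already made are then lost at their own rates, and transcripts with short half-lives go first. Levels are given as CPM, a gene's share of its library's counts, and not as the amount of its RNA in a cell, so a share can rise without any synthesis. Blocking new synthesis in this way is commonly used to follow the decay of RNA. Immediate early genes, the first to respond when a cell receives a signal, make transcripts that are among the shortest lived. In bulk libraries, fewer cells of a type and less RNA per cell cannot be told apart.

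The 2 h libraries held between 6.36 and 7.15 M counts (M, 10 to the power of 6) and the 0 h libraries 3.95, 22.2, 22.7 and 11.9 M for replicates 1 to 4. Time coincides with the deposited table, and these cannot be told apart. Depth also differed between the groups, although 0 h replicate 1 held fewer counts than any 2 h library. Counts of genes at equal depth are given below. Replicates 1 and 2 at 0 h stood apart from replicates 3 and 4: the chi-square per gene between their counts was 3.62 within the first pair, 2.86 within the second and 18.7 to 41.4 across pairs, against 2.21 to 5.03 between any 2 libraries at 2 h. Mitochondrially encoded mRNAs made up 0.701 to 0.964% of counts at 2 h and 0.345 to 0.762% at 0 h, and ribosomal protein mRNAs 2.66 to 2.71% and 2.71 to 3.08%. The 7 ESC markers (Pou5f1, Nanog, Sox2, Zfp42, Esrrb, Sall4 and Lin28a) summed to 676 to 751 CPM at 2 h and 727 to 781 at 0 h, with none called. The ESC markers were thus present in all 8 libraries. Markers of cells derived from ESCs were present as well: 7 endoderm markers summed to 6837 to 7697 at 2 h and 6630 to 7270 at 0 h, with 1 higher and 1 lower, and 5 neuroectoderm markers to 525 to 531 at 2 h and 388 to 435 at 0 h, also with 1 each way. Fibroblast feeder markers summed to 585 to 683 at 2 h and 669 to 1050 at 0 h (7 of 9 tested, Lum and S100a4 too low), with 1 lower and none higher. Trophoblast markers summed to 51.9 to 59.4 at 2 h and 56.5 to 72.3 at 0 h (4 of 5 tested, Elf5 too low), with 1 lower. The part of these cell types in the results was not tested.

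Early changes were as numerous upward as downward. Of 13390 genes tested, 2465 were called at a false discovery rate (FDR) under 0.05 by the quasi-likelihood test of edgeR (18.4%): 1239 were higher at 2 h (9.25%) and 1226 lower (9.16%). Changes of at least 2-fold were seen in 195 called genes upward (1.46%) and 141 downward (1.05%). The upward tail was the longer one: it reached a log2 fold change of 6.13, whereas among genes with a mean of at least 5 CPM the largest decrease was -2.59. Levels below are CPM scaled by the trimmed mean of M values (TMM), and means carry the SD over the 4 libraries of a group. Every 2 h library lay above every 0 h library for 1660 genes (12.4%) and below for 1555 (11.6%). Without the second WT 2 h replicate 1631 genes were called, and without the fourth 1615. Within replicates 1 and 2 alone 2230 genes were higher and 1675 lower, and within replicates 3 and 4 alone 1576 and 1390.

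The split between higher and lower depended on the scaling, and the labels name no spike-in RNA. TMM scaling put the median gene at a log2 fold change of -0.01 and 49.7% of calls on the lower side. Scaling on library totals moved the median to -0.12, with 807 genes higher and 2419 lower (74.98% lower). Scaling on ribosomal protein mRNAs gave 784 higher and 1341 lower (63.1% lower). Scaling on the mRNAs encoded in mitochondria, which are made by a polymerase that α-amanitin does not block, moved the median to -0.77, with 81 genes higher and 8820 lower (99.1% lower). On that last scale, called the mitochondrial scale here, log2 values are lower than those given below by about that shift, so a gene with a value between 0 and about 0.77 here is below 0 there. The share of these mRNAs itself varied among the WT 0 h libraries, from 0.345 to 0.762% of counts, so this scale is not a fixed reference. The counts of each gene list are to be read against 9.25% higher and 9.16% lower over all genes, and on the mitochondrial scale against 81 higher and 8820 lower of 13390.

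**Figure D1:**
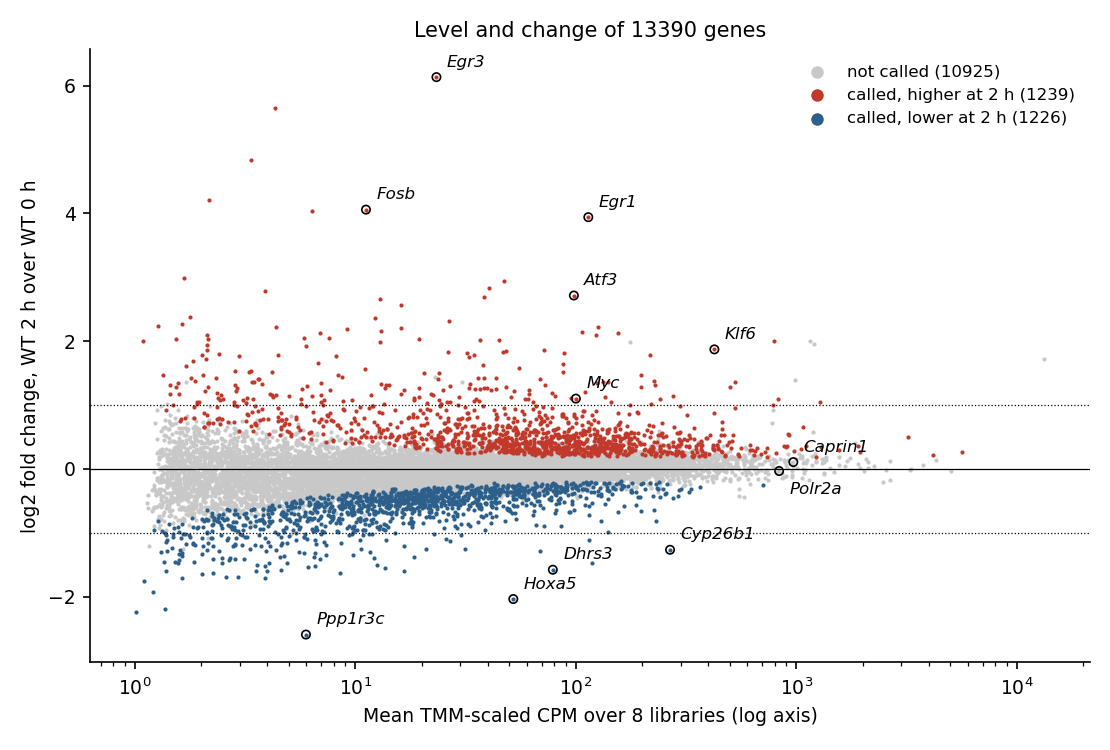
Mean level over the 8 libraries in TMM-scaled CPM (x, log axis) against the log2 fold change of WT 2 h over WT 0 h (y), 1 point per gene, with 1239 called higher in red, 1226 called lower in blue and the others in grey. Dotted lines mark a 2-fold change, and of the genes marked by name Egr3 lies highest and Ppp1r3c lowest.

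Egr3, Egr2 and Egr4 had the 3 largest increases of the genes called. They are immediate early genes, the transcription factor genes that signals switch on within minutes and whose mRNAs are among the least stable in the cell. Egr3, a zinc finger factor of the early growth response family, had 43.3, 36.7, 56.1 and 47.9 CPM at 2 h, against 0.733, 0.346, 0.730 and 0.982 CPM at 0 h. All 4 libraries at 2 h were higher than each 0 h library by a wide margin (log2 fold change 6.13, SE 0.22, FDR 3.03e-09). Egr3 lies on chromosome 14, 70077317 to 70082613 (GRCm38.p6, RefSeq). Its relative Egr1 had 222, 194, 218 and 221 CPM at 2 h, against 17.6, 13.5, 12.4 and 14.2 CPM at 0 h (log2 fold change 3.94, SE 0.10, FDR 1.53e-10). Egr4, the remaining member of the family besides Egr2, averaged 6.59 ± 0.678 CPM at 2 h and 0.161 ± 0.152 CPM at 0 h.

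Fosb, an AP-1 subunit encoded on chromosome 7, 19302696 to 19310118, had 22.2, 18.7, 23.03 and 19.8 CPM at 2 h, against 2.20, 0.994, 1.07 and 1.56 CPM at 0 h (log2 fold change 4.06, SE 0.18, FDR 1.68e-08). Another AP-1 subunit, Fos, had 42.2, 38.9, 51.7 and 42.4 CPM at 2 h, against 10.8, 8.47, 7.47 and 9.99 CPM at 0 h (log2 fold change 2.31, SE 0.13, FDR 1.1e-07). The groups did not overlap for either gene. Atf3, a stress-induced partner of AP-1 factors, had 177, 159.9, 171 and 173 CPM at 2 h, against 28.1, 25.2, 27.2 and 23.8 CPM at 0 h (log2 fold change 2.71, SE 0.077, FDR 3.08e-10), and its groups were likewise apart. Maff, a small Maf factor, had 87.2, 73.3, 87.9 and 85.7 CPM at 2 h, against 12.95, 11.8, 9.66 and 9.99 CPM at 0 h (log2 fold change 2.94, SE 0.11, FDR 3.03e-09). Arc, whose protein regulates receptor trafficking at synapses and which is an immediate early gene in neurons, had 28.3, 26.5, 24.3 and 31.04 CPM at 2 h, against 5.38, 5.01, 3.99 and 4.67 CPM at 0 h (log2 fold change 2.57, SE 0.13, FDR 3.47e-08).

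As a group, the AP-1 and Egr immediate early list had 17 of 18 members tested, of which 16 rose, none fell and 1 was not called, against 9.25% higher among all genes. The median log2 fold change was 2.31, against -0.01 over all genes, and 15 members rose at least 2-fold. On the mitochondrial scale 13 were still called higher and none lower, with a median of 1.51. The summed level was 1661 to 1808 CPM at 2 h and 459 to 606 CPM at 0 h. At an unadjusted p under 0.05 the counts were also 16 higher and none lower, and DESeq2 gave the same. Further AP-1 subunits were Jun (326 ± 8.45 CPM at 2 h, 154 ± 21.1 at 0 h), Junb (132 ± 10.4 CPM at 2 h, 43.1 ± 8.07 at 0 h) and Fosl2 (338 ± 27.1 CPM at 2 h, 98.1 ± 7.63 at 0 h). The orphan nuclear receptors were Nr4a1 (59.01 ± 6.13 CPM at 2 h, 14.5 ± 1.28 at 0 h) and Nr4a3 (7.18 ± 1.62 CPM at 2 h, 1.58 ± 0.432 at 0 h). The member that was not called, Nr4a2, averaged 6.90 ± 1.06 CPM at 2 h and 6.29 ± 0.445 CPM at 0 h (SD, n = 4 each). Jund had the smallest called change, 0.41.

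**Figure D2:**
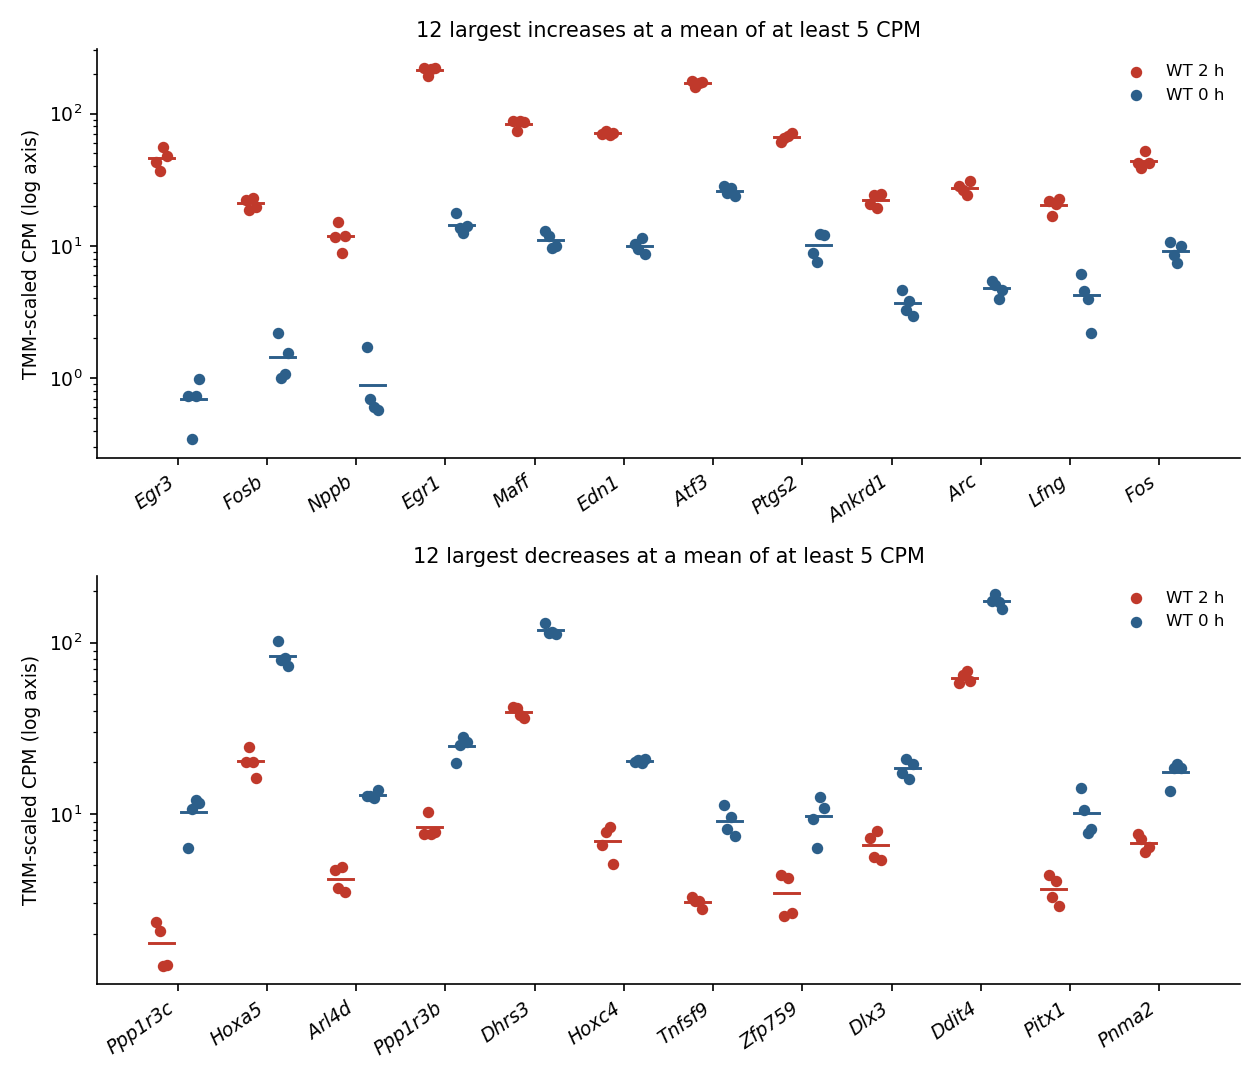
TMM-scaled CPM (y, log axis) of the 12 genes that rose most and the 12 that fell most among those called at a mean of 5 CPM or more, with 1 point per library, WT 2 h left in red and WT 0 h right in blue, and bars at the means. For none of the 24 genes do the 2 groups overlap.

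Many immediate early promoters carry a CArG box, the element bound by serum response factor (SRF), and Srf was itself higher at 2 h (log2 fold change 1.34, SE 0.12, FDR 8.6e-06), with 178 CPM at 2 h and 71.1 CPM at 0 h. Of the 195 genes at least 2-fold higher, 137 had a promoter entry in RefSeq (250 bases before to 50 after a start), and 8 of these held a CArG box on either strand (5.84%). The share was 1.56% (160) of 10270 genes tested with an entry and 0.971% (1 of 103) of genes at least 2-fold lower. Among those 8 the sequences of 6 are shown, because they place the element next to the start of genes that rose: the 120 bases before the start, 5′ to 3′, with the CArG box in capitals. They were picked after their values were seen.
Egr2: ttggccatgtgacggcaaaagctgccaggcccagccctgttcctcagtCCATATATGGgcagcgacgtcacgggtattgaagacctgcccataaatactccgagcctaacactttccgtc
Dusp5: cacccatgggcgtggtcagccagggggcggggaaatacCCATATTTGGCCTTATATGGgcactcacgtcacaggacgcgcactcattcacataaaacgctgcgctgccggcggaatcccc
Srf: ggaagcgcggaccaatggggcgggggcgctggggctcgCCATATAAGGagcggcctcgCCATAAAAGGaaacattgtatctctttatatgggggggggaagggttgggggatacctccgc
Fhl2: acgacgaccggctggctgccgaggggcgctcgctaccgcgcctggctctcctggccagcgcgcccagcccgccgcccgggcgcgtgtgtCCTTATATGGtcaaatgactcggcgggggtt
Rnd3: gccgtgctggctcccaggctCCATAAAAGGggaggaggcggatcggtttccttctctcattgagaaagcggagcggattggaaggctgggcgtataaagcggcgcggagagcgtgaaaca
Zfp36: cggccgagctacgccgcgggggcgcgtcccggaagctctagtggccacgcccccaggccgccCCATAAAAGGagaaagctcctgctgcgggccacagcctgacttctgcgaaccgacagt

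In GRCm38.p6 these are chr10:67537749-67537868 (plus strand), chr19:53529025-53529144 (plus), chr17:46556163-46556282 (minus), chr1:43163962-43164081 (minus), chr2:51149112-51149231 (minus) and chr7:28379229-28379348 (minus). In the stretches shown, Dusp5 and Srf each hold 2 boxes, directly adjacent in Dusp5, and the others 1. Windows at other starts of Egr2 and Fhl2, not shown, hold a box as well. Egr2 had 7.81, 8.44, 9.73 and 8.02 CPM at 2 h, against 0.0, 0.0865, 0.258 and 0.164 CPM at 0 h (log2 fold change 5.64, SE 0.28, FDR 4.55e-08), and 1 of the 0 h libraries held no count of it. Fhl2, a LIM-domain cofactor, averaged 30.3 ± 3.81 CPM at 2 h and 10.6 ± 1.17 CPM at 0 h. Rnd3, a small GTPase, averaged 328 ± 15.2 CPM at 2 h and 132 ± 17.00 CPM at 0 h. Other elements were also in a larger share of the genes at least 2-fold higher than of all genes tested: TGACGTCA, the cAMP response element, in 8.03% against 3.62%, the AP-1 element TGACTCA in 9.49% against 4.23%, and the EGR element GCGTGGGCG in 3.65% against 1.44%. The genes at least 2-fold lower held them in 3.88%, 4.85% and 0 of 103. Both strands were searched, and no match of one element is a match of another. These matches describe letters in the windows and say nothing about binding. None of the windows found for the 12 largest increases at a mean of at least 5 CPM held a CArG box. Of those 12, Egr3, Egr1 and Arc had no window, and Egr2, whose mean was lower, is not among the 12.

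Many immediate early genes depend on the ERK pathway. The ERK feedback list holds mainly genes that restrain this pathway or other MAP kinases, and ETS factors, but not these kinds alone. Of its 20 tested members 12 rose, 2 fell and 6 were not called, against 9.25% higher and 9.16% lower over all genes, with a median of 0.67 against -0.01 over all genes, and 8 rose at least 2-fold. On the mitochondrial scale 6 were higher and 7 lower, and the median was -0.08. Dual-specificity phosphatases remove phosphate from MAP kinases. Dusp5, a nuclear ERK phosphatase, had 200.5, 187, 200.5 and 238 CPM at 2 h, against 49.4, 44.7, 45.8 and 38.96 CPM at 0 h (log2 fold change 2.22, SE 0.095, FDR 1.09e-08). Dusp4 had 197, 202, 187 and 219 CPM at 2 h, against 48.6, 50.5, 48.5 and 40.1 CPM at 0 h (log2 fold change 2.10, SE 0.087, FDR 7.86e-09), with no overlap. Dusp6, the cytoplasmic ERK phosphatase, averaged 290.2 ± 7.84 CPM at 2 h and 104 ± 9.26 CPM at 0 h (log2 fold change 1.48, SE 0.075, FDR 4.99e-08). Dusp8, which acts on JNK and p38, averaged 72.7 ± 2.85 CPM at 2 h and 20.97 ± 2.99 CPM at 0 h (log2 fold change 1.82, SE 0.095, FDR 5.41e-08). Others of the family that rose were Dusp2 (6.90 ± 1.78 CPM at 2 h, 0.926 ± 0.192 at 0 h), Dusp10 (31.3 ± 3.66 CPM at 2 h, 7.78 ± 1.09 at 0 h) and Dusp1 (52.4 ± 3.04 CPM at 2 h, 20.1 ± 3.26 at 0 h). The Sprouty inhibitors that rose were Spry1 (41.4 ± 3.00 CPM at 2 h, 21.5 ± 2.37 at 0 h), Spry2 (73.7 ± 4.19 CPM at 2 h, 31.7 ± 1.79 at 0 h) and Spry4 (12.8 ± 2.74 CPM at 2 h, 7.24 ± 1.52 at 0 h). The ETS factors Etv1, Etv4 and Etv5 were not called, with log2 fold changes of -0.07, -0.09 and 0.15. The 2 that fell were Dusp7 (12.4 ± 2.28 CPM at 2 h, 20.05 ± 1.65 at 0 h) and Spsb1 (69.3 ± 5.06 CPM at 2 h, 88.5 ± 9.49 at 0 h). Il17rd, an ERK inhibitor at the membrane, averaged 111 ± 8.79 CPM at 2 h and 108 ± 3.85 CPM at 0 h and was not called.

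A list of other short-lived response genes had members called in both directions. Of 30 tested, 18 rose, 3 fell and 9 were not called, with a median of 0.64, while on the mitochondrial scale 1 was higher, 7 were lower and the median was -0.15. Klf6, a Krüppel-like factor, had 625, 647, 708 and 696 CPM at 2 h, against 161, 145, 203 and 221 CPM at 0 h (log2 fold change 1.87, SE 0.12, FDR 3.72e-07). Plk2, a polo-like kinase also induced by p53, had 707, 696, 697 and 752 CPM at 2 h, against 299.6, 276, 313 and 285 CPM at 0 h (log2 fold change 1.28, SE 0.066, FDR 5.15e-08), with no overlap. Csrnp1, a nuclear protein induced by AXIN1, averaged 99.99 ± 7.86 CPM at 2 h and 37.8 ± 4.18 CPM at 0 h. Btg2, an antiproliferative protein that recruits the CCR4-NOT deadenylase, averaged 294 ± 13.03 CPM at 2 h and 145 ± 9.10 CPM at 0 h. The 3 that fell were Socs3, Sertad3 and Ier3. Socs3, the feedback inhibitor of LIF and STAT3 signalling, averaged 18.5 ± 0.841 CPM at 2 h and 44.6 ± 6.65 CPM at 0 h (log2 fold change -1.25, SE 0.11, FDR 8.74e-06). Ier3 averaged 13.9 ± 1.01 CPM at 2 h and 22.3 ± 2.19 CPM at 0 h. Mcl1, an anti-apoptotic protein whose mRNA is short-lived, averaged 541 ± 16.5 CPM at 2 h and 527 ± 50.8 CPM at 0 h and was not called (FDR 0.794).

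Further genes among the 12 largest increases were Edn1, Nppb, Ptgs2 and Ankrd1. Edn1, which encodes the peptide endothelin, had 69.7, 73.6, 69.3 and 71.3 CPM at 2 h, against 10.3, 9.47, 11.5 and 8.68 CPM at 0 h (log2 fold change 2.83, SE 0.098, FDR 2.38e-09). Nppb, a natriuretic peptide gene, had 11.6, 15.1, 8.76 and 11.95 CPM at 2 h, against 1.71, 0.692, 0.601 and 0.573 CPM at 0 h (log2 fold change 4.03, SE 0.26, FDR 3.95e-07), and its 0 h level in replicate 1 was higher than in the other 3. Ptgs2, the inducible cyclooxygenase, had 60.5, 65.4, 68.1 and 70.8 CPM at 2 h, against 8.80, 7.52, 12.3 and 12.1 CPM at 0 h (log2 fold change 2.68, SE 0.14, FDR 7.24e-08). Ankrd1, an ankyrin repeat protein used as a target of YAP, averaged 22.3 ± 2.73 CPM at 2 h and 3.67 ± 0.739 CPM at 0 h (log2 fold change 2.66, SE 0.15, FDR 8.06e-08). None of these groups overlapped.

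The transforming growth factor list held 6 rises and 4 falls among 19 tested, with a median of 0.04, and on the mitochondrial scale 1 rise and 10 falls. Bmp2, a bone morphogenetic protein ligand, had 60.01, 57.7, 54.98 and 57.3 CPM at 2 h, against 17.6, 19.3, 17.8 and 19.2 CPM at 0 h (log2 fold change 1.63, SE 0.079, FDR 3.42e-08). The extracellular antagonists of these ligands rose too, Nog (19.8 ± 0.675 CPM at 2 h, 8.73 ± 3.50 at 0 h) and Grem1 (7.69 ± 0.730 CPM at 2 h, 3.71 ± 1.07 at 0 h). Bmp4 averaged 64.9 ± 1.61 CPM at 2 h and 43.1 ± 3.46 CPM at 0 h. The corepressor Ski averaged 299 ± 23.1 CPM at 2 h and 313 ± 19.4 CPM at 0 h and was not called. Of 17 Wnt targets, 5 rose and 3 fell, and on the mitochondrial scale none rose and 10 fell. Apcdd1, a Wnt inhibitor at the membrane, averaged 25.2 ± 1.55 CPM at 2 h and 11.7 ± 1.32 CPM at 0 h. The transcription factors were Sp8 (19.03 ± 0.368 CPM at 2 h, 8.31 ± 1.54 at 0 h) and Sp5 (29.7 ± 3.76 CPM at 2 h, 14.3 ± 6.12 at 0 h). Dkk1, a secreted antagonist, averaged 51.9 ± 2.77 CPM at 2 h and 34.3 ± 2.43 CPM at 0 h. The largest fall was in Rnf43 (3.75 ± 1.09 CPM at 2 h, 7.10 ± 1.32 at 0 h), a ubiquitin ligase that removes Wnt receptors. Fzd7, a Wnt receptor, averaged 277 ± 9.70 CPM at 2 h and 269.7 ± 12.7 CPM at 0 h (FDR 0.717). Timp3, an inhibitor of matrix proteases, was the single called member of 34 collagen and matrix genes, at 191 ± 10.9 CPM at 2 h and 74.9 ± 6.44 CPM at 0 h (log2 fold change 1.36, SE 0.08, FDR 1.71e-07).

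In the Id, Hes and Notch list 3 of 17 members rose and 3 fell, against 2 and 11 on the mitochondrial scale. Lfng, the glycosyltransferase that modifies Notch receptors and whose mRNA cycles in the somite clock, had 21.9, 16.7, 20.6 and 22.7 CPM at 2 h, against 6.11, 4.58, 3.95 and 2.21 CPM at 0 h (log2 fold change 2.36, SE 0.20, FDR 6.2e-06). Id4, an inhibitor of basic helix-loop-helix factors, averaged 21.3 ± 4.53 CPM at 2 h and 4.84 ± 1.06 CPM at 0 h. The ligand Jag1 averaged 41.97 ± 2.27 CPM at 2 h and 22.8 ± 0.888 CPM at 0 h. Notch1, a receptor, was lower, at 61.2 ± 7.66 CPM at 2 h and 99.4 ± 13.1 CPM at 0 h (FDR 0.0008). Notch2 averaged 186 ± 21.2 CPM at 2 h and 171 ± 24.1 CPM at 0 h and was not called.

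The largest decrease among genes with a mean of at least 5 CPM was in Ppp1r3c. Ppp1r3c, a subunit that targets protein phosphatase 1 to glycogen, lies on chromosome 19, 36731731 to 36736604 and had 2.34, 2.07, 1.30 and 1.31 CPM at 2 h, against 6.35, 10.7, 12.1 and 11.6 CPM at 0 h (log2 fold change -2.59, SE 0.24, FDR 1.06e-05). Its liver-type relative Ppp1r3b had 7.66, 10.2, 7.62 and 7.87 CPM at 2 h, against 19.8, 25.4, 27.9 and 26.4 CPM at 0 h (log2 fold change -1.60, SE 0.14, FDR 5.27e-06). The 2 h libraries were below every 0 h library for both. Ddit4, an inhibitor of mTORC1 that responds to stress, had 57.8, 64.8, 68.3 and 59.5 CPM at 2 h, against 176, 192, 172 and 157 CPM at 0 h (log2 fold change -1.48, SE 0.083, FDR 1.12e-07), and was the only member of the p53 list to fall, against 8 that rose of 24 (none rose and 13 fell on the mitochondrial scale). Arl4d, a small GTPase, averaged 4.19 ± 0.689 CPM at 2 h and 12.9 ± 0.573 CPM at 0 h. Tnfsf9, a ligand of the tumour necrosis factor family, averaged 3.06 ± 0.213 CPM at 2 h and 9.12 ± 1.67 CPM at 0 h. Pnma2, a protein related to retrotransposon Gag, averaged 6.79 ± 0.734 CPM at 2 h and 17.6 ± 2.62 CPM at 0 h. The homeodomain factors among the largest decreases were Dlx3 (6.54 ± 1.23 CPM at 2 h, 18.5 ± 2.25 at 0 h) and Pitx1 (3.65 ± 0.680 CPM at 2 h, 10.2 ± 2.95 at 0 h).

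Hox genes, which set position along the body axis and are opened in ESCs by retinoic acid, were called in the lower direction alone. Of 39 members 32 were tested: 22 fell, none rose and 10 were not called, against 9.16% lower among all genes. The median was -0.84 against -0.01, and 10 fell at least 2-fold. Scaling on library totals gave 27 falls, on ribosomal protein mRNAs 21 and on the mitochondrial scale 28, with no rise under any of these. At an unadjusted p under 0.05, 26 were lower and 1 higher, and DESeq2 called 22 lower and none higher. Hoxa5, on chromosome 6, 52201754 to 52204587, had 20.00, 24.7, 20.1 and 16.2 CPM at 2 h, against 102, 78.9, 81.8 and 73.3 CPM at 0 h (log2 fold change -2.04, SE 0.13, FDR 4.11e-07). Hoxc4 had 6.56, 7.85, 8.43 and 5.10 CPM at 2 h, against 20.04, 20.7, 19.8 and 20.9 CPM at 0 h (log2 fold change -1.55, SE 0.14, FDR 6.72e-06), and its groups were also apart. Others that fell were Hoxb1 (12.4 ± 1.30 CPM at 2 h, 29.6 ± 3.69 at 0 h), Hoxb4 (19.9 ± 2.32 CPM at 2 h, 37.8 ± 1.32 at 0 h) and Hoxa3 (10.2 ± 0.991 CPM at 2 h, 26.8 ± 5.03 at 0 h). The most 5′ members of the clusters were not called: Hoxa13, Hoxc13 and Hoxd13 had log2 fold changes of 0.10, 0.20 and -0.03. Hoxb9 was not called either, at 51.8 ± 5.24 CPM at 2 h and 44.1 ± 4.01 CPM at 0 h.

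Of 27 genes of the retinoic acid response tested, 11 fell and 1 rose, against 9.16% lower and 9.25% higher over all genes, with a median of -0.22. On the mitochondrial scale 25 fell, as did 8820 of all 13390 genes. Enzymes that dispose of retinoids were among those that fell. Dhrs3, which reduces retinaldehyde to retinol, had 42.04, 41.7, 37.6 and 36.1 CPM at 2 h, against 129.8, 115, 116 and 112 CPM at 0 h (log2 fold change -1.58, SE 0.081, FDR 4.99e-08). Cyp26b1 had 175, 167, 144 and 143 CPM at 2 h, against 399.5, 383, 373 and 359 CPM at 0 h (log2 fold change -1.27, SE 0.08, FDR 3.56e-07), and Cyp26a1 had 177, 167, 172 and 155 CPM at 2 h, against 292, 272, 304 and 317 CPM at 0 h (log2 fold change -0.82, SE 0.072, FDR 6.72e-06). Both are cytochromes that degrade retinoic acid, and neither gene's groups overlapped. The receptors called lower were Rarg (46.4 ± 5.95 CPM at 2 h, 85.9 ± 6.30 at 0 h) and Rara (62.98 ± 2.06 CPM at 2 h, 99.7 ± 26.3 at 0 h), whereas Rarb (23.5 ± 2.09 CPM at 2 h, 27.1 ± 3.02 at 0 h) and Rxra (47.7 ± 2.77 CPM at 2 h, 53.2 ± 4.58 at 0 h) were not called. Aldh1a2, the enzyme that makes retinoic acid, was the member that rose, at 5.28 ± 0.569 CPM at 2 h and 2.80 ± 0.915 CPM at 0 h (FDR 0.0152). Crabp1, a retinoic acid binding protein, was not called, with a log2 fold change of 0.01. The 7 markers of the retinoic acid state summed to 565 to 626 CPM at 2 h and 833 to 877 CPM at 0 h, with 4 of them called lower.

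Zinc finger genes named by number, many of them repressors with KRAB domains, were called lower more often than higher. The list goes by symbol and not by class, and its largest rise was in Zfp36, which is described below with the RNA decay genes. Of 332 tested, 89 fell and 18 rose (26.8% and 5.42%, against 9.16% and 9.25% over all genes), with a median of -0.23, and 15 fell at least 2-fold. The counts were 122 and 13 on library totals, 85 and 12 on ribosomal protein mRNAs, and 246 and 0 on the mitochondrial scale. Zfp759 had 4.38, 2.52, 4.22 and 2.62 CPM at 2 h, against 9.29, 6.31, 12.6 and 10.9 CPM at 0 h (log2 fold change -1.52, SE 0.26, FDR 0.00147). Others that fell were Zfp473 (19.7 ± 2.50 CPM at 2 h, 36.8 ± 2.69 at 0 h), Zfp41 (25.9 ± 3.73 CPM at 2 h, 45.98 ± 1.36 at 0 h) and Zfp395 (72.01 ± 4.71 CPM at 2 h, 115 ± 7.91 at 0 h). Zfp644 moved the other way, at 246 ± 15.4 CPM at 2 h and 133 ± 22.4 CPM at 0 h (log2 fold change 0.89, SE 0.11, FDR 0.00011), and Zfp106 did not move beyond its spread (FDR 0.986). Many of these genes have close copies in the genome, and their counts depend on how shared reads were assigned, which is not given in the sources used here.

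**Figure D3:**
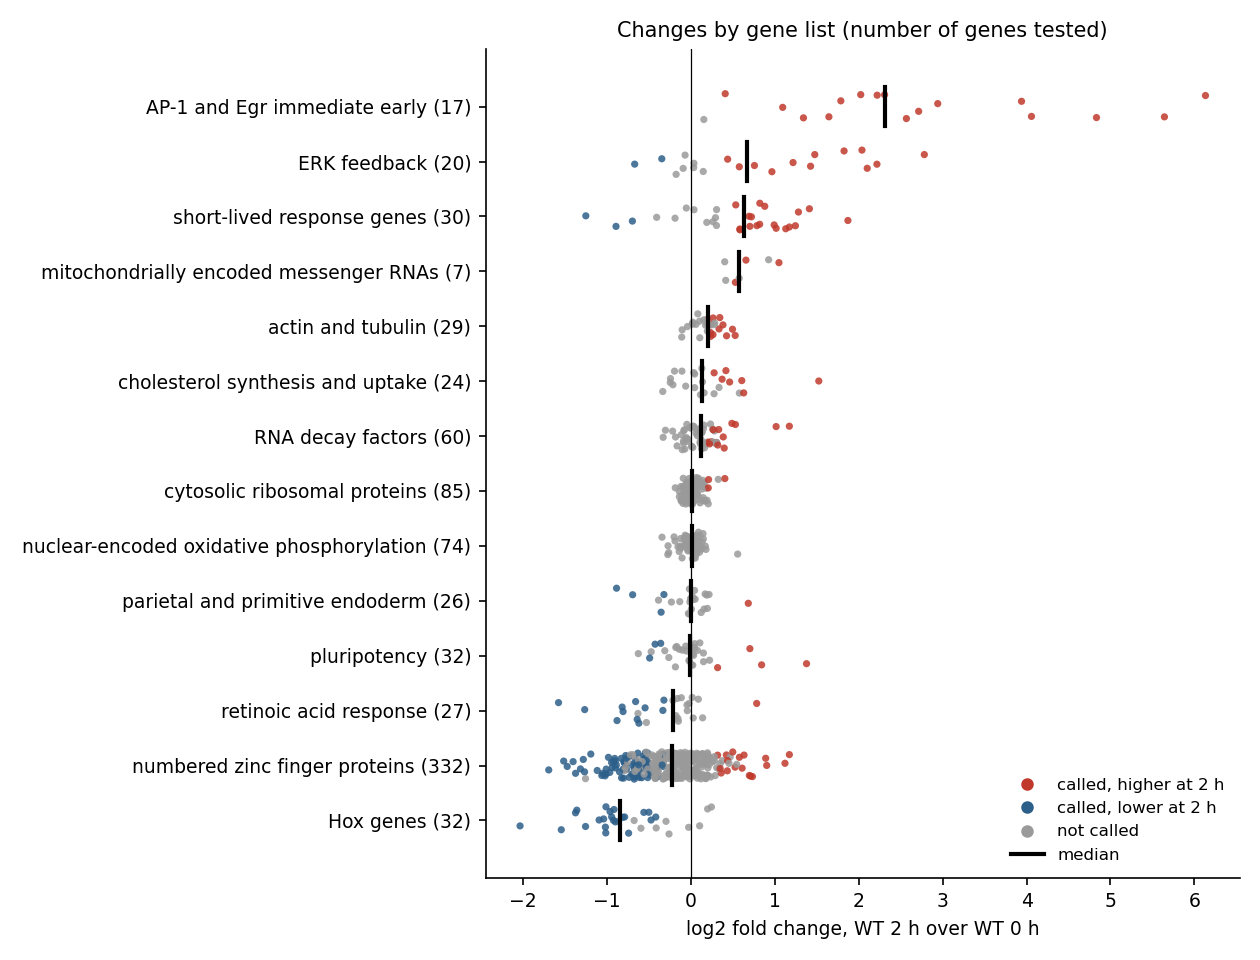
Log2 fold change of WT 2 h over WT 0 h (x) for the members of 14 gene lists (y, number tested in parentheses), with called genes in red (higher) or blue (lower), genes not called in grey and a black bar at the median. Medians run from 2.31 for the AP-1 and Egr list to -0.84 for the Hox genes, with ribosomal protein and oxidative phosphorylation genes packed around 0.

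Factors of the Myc network moved in both directions. Myc, whose mRNA decays quickly, had 149, 138, 123 and 135 CPM at 2 h, against 76.97, 69.4, 56.5 and 54.02 CPM at 0 h (log2 fold change 1.10, SE 0.11, FDR 1.89e-05), and every 2 h library was above every 0 h library. Repressors that compete with Myc for Max rose in Mnt (142 ± 3.81 CPM at 2 h, 75.95 ± 11.8 at 0 h) and Mxd1 (22.04 ± 2.12 CPM at 2 h, 14.2 ± 0.398 at 0 h) and fell in Mxi1 (36.1 ± 3.14 CPM at 2 h, 47.8 ± 2.22 at 0 h) and Mxd3 (5.44 ± 0.734 CPM at 2 h, 8.28 ± 1.398 at 0 h). In all 4 of 12 rose and 2 fell, and on the mitochondrial scale 6 fell and none rose, where the log2 fold change of Myc was 0.29 and not called. Of the circadian regulators 6 of 16 rose and 2 fell (1 and 7 on the mitochondrial scale). The REV-ERB repressors were Nr1d2 (35.5 ± 4.36 CPM at 2 h, 12.3 ± 2.79 at 0 h) and Nr1d1 (11.9 ± 1.08 CPM at 2 h, 5.59 ± 0.473 at 0 h), and another repressor that rose was Nfil3 (38.4 ± 0.698 CPM at 2 h, 22.6 ± 3.14 at 0 h). Ciart, a circadian repressor, was lower, at 1.84 ± 0.624 CPM at 2 h and 5.94 ± 0.569 CPM at 0 h (FDR 0.000186). Among 38 cell cycle regulators 6 rose and 3 fell, and on the mitochondrial scale none rose and 30 fell. The atypical E2F repressors rose, E2f8 (69.5 ± 5.40 CPM at 2 h, 31.9 ± 1.41 at 0 h) and E2f7 (84.7 ± 2.74 CPM at 2 h, 57.3 ± 3.55 at 0 h). Wee1, the kinase that delays mitosis, averaged 132 ± 7.12 CPM at 2 h and 87.7 ± 7.72 CPM at 0 h. Top2a, a topoisomerase of dividing cells, averaged 861 ± 29.2 CPM at 2 h and 931 ± 104 CPM at 0 h and was not called.

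Markers of cell state were called about as often as all genes, of which 18.4% were called. Of 32 pluripotency genes 4 rose and 3 fell, with a median of -0.01 (none rose and 20 fell on the mitochondrial scale). Pou5f1 had 91.9, 71.05, 82.7 and 77.2 CPM at 2 h, against 75.8, 103, 72.5 and 83.98 CPM at 0 h (FDR 0.758), and Nanog 56.4, 52.1, 54.01 and 46.8 CPM at 2 h, against 53.3, 60.00, 66.8 and 77.8 CPM at 0 h (FDR 0.0669), with overlapping groups for both. The Krüppel-like factors that also respond to growth signals were called higher, Klf4 (145 ± 2.55 CPM at 2 h, 89.6 ± 8.25 at 0 h) and Klf5 (409.8 ± 34.6 CPM at 2 h, 229 ± 24.5 at 0 h), but Klf4 lay at -0.07 on the mitochondrial scale. Tbx3 averaged 249 ± 7.57 CPM at 2 h and 335 ± 9.13 CPM at 0 h and was called lower. Fgf5 averaged 2.68 ± 0.612 CPM at 2 h and 1.09 ± 0.282 CPM at 0 h, low in both groups. A longer list of fibroblast feeder genes had 16 of 19 members tested, with 2 rises, Twist1 and Vim, and 2 falls, Twist2 and Pdgfrb, and a median of 0.05, against no rise and 9 falls on the mitochondrial scale. The Vim call was lost without WT 2 h replicate 1 or 4, and the calls of Twist1 and Twist2 were each lost without any 1 of 7 of the 8 libraries (all but WT 0 h replicate 1 for Twist1 and WT 2 h replicate 3 for Twist2). Endoderm genes had 1 rise and 4 falls of 26 (none and 17 on the mitochondrial scale). Falls included Sox7 (60.4 ± 1.61 CPM at 2 h, 111 ± 10.2 at 0 h), and the rise was Foxa2 (53.8 ± 1.47 CPM at 2 h, 33.7 ± 2.31 at 0 h), both transcription factors. Col4a1, a basement membrane collagen of parietal endoderm, averaged 5003 ± 365 CPM at 2 h and 5113 ± 349.5 CPM at 0 h (FDR 0.812). Neuroectoderm genes had 3 rises and 1 fall of 18 (none and 10 on the mitochondrial scale). The fall was Pax6 (7.33 ± 0.644 CPM at 2 h, 14.4 ± 0.778 at 0 h), and the rises were Nes (345 ± 9.48 CPM at 2 h, 233 ± 18.1 at 0 h), Sox21 (8.78 ± 1.52 CPM at 2 h, 4.01 ± 0.446 at 0 h) and Nkx6-1 (5.28 ± 0.671 CPM at 2 h, 2.04 ± 0.363 at 0 h).

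The transcription machinery that the toxin acts on had 1 of 12 polymerase subunit genes and 6 of 24 elongation and pausing genes called, against 18.4% of all genes. Polr2a, the large subunit of RNA polymerase II to which α-amanitin binds, had 869, 871, 789 and 778 CPM at 2 h, against 900.0, 901, 778 and 808 CPM at 0 h (log2 fold change -0.03, SE 0.074, FDR 0.796), and the groups overlapped. Of 12 subunit genes tested 1 was called, Polr2m, at 402 ± 17.1 CPM at 2 h and 347 ± 16.6 CPM at 0 h (FDR 0.0363), a call that was lost without any 1 of 7 of the 8 libraries. Hexim1, the inhibitor of the elongation kinase P-TEFb, had 121, 129.5, 124 and 115 CPM at 2 h, against 125, 123, 109.8 and 116 CPM at 0 h (FDR 0.689). Of 24 elongation and pausing genes 6 rose and none fell (7 and 0 at an unadjusted p under 0.05, 6 and 0 by DESeq2), while none rose and 14 fell on the mitochondrial scale. Cdk12, a kinase of the polymerase tail, had 239, 262, 241 and 254 CPM at 2 h, against 145, 134, 134 and 132 CPM at 0 h (log2 fold change 0.87, SE 0.065, FDR 1.47e-06). Larp7, which holds the 7SK RNA, averaged 91.8 ± 2.95 CPM at 2 h and 69.2 ± 3.46 CPM at 0 h. The members of the super elongation complex that rose were Ell2 (41.9 ± 3.07 CPM at 2 h, 27.4 ± 5.91 at 0 h), Aff1 (181 ± 7.11 CPM at 2 h, 139.7 ± 8.47 at 0 h) and Aff4 (697 ± 20.9 CPM at 2 h, 569.8 ± 38.96 at 0 h).

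Counts for factors that process RNA depended on the scaling. In the splicing list 9 of 27 rose and 2 fell, against 9.25% higher and 9.16% lower over all genes, but 5 rose and 4 fell on library totals, 3 and 1 on ribosomal protein mRNAs, and none rose and 12 fell on the mitochondrial scale. The serine and arginine rich factors included Srsf5 (352 ± 24.2 CPM at 2 h, 238 ± 14.5 at 0 h) and Srsf6 (357 ± 12.8 CPM at 2 h, 278 ± 29.6 at 0 h), and the kinases that phosphorylate them Clk4 (50.01 ± 2.90 CPM at 2 h, 31.01 ± 6.62 at 0 h) and Clk3 (59.4 ± 0.396 CPM at 2 h, 44.9 ± 3.27 at 0 h). Of 60 RNA decay genes 13 rose and none fell, against 6 rises and 2 falls on library totals and no rise and 30 falls on the mitochondrial scale. At an unadjusted p under 0.05, 21 were higher and 2 lower, and DESeq2 called 15 higher and none lower. Zfp36, which binds AU-rich elements and brings in deadenylases, had 21.7, 18.9, 20.3 and 27.1 CPM at 2 h, against 14.2, 9.55, 8.24 and 9.41 CPM at 0 h (log2 fold change 1.17, SE 0.16, FDR 0.000266). Upf3a, a factor of nonsense-mediated decay, averaged 59.5 ± 2.55 CPM at 2 h and 42.6 ± 3.22 CPM at 0 h and was called higher. Pabpc1, the poly(A)-binding protein, averaged 2184 ± 162 CPM at 2 h and 1973 ± 161 CPM at 0 h (FDR 0.221). Caprin1, the gene the series is about, had 975, 1019, 1038 and 993 CPM at 2 h, against 888, 800.0, 1017 and 1034 CPM at 0 h (FDR 0.423) with overlapping groups, and of 29 genes of its partners and stress granules 3 rose and none fell (8 and 2 at an unadjusted p under 0.05, 6 and 0 by DESeq2), while 15 fell on the mitochondrial scale. Those 3 were Ddx3x (1092 ± 72.4 CPM at 2 h, 757 ± 165 at 0 h), an RNA helicase, Nufip2 (172 ± 11.96 CPM at 2 h, 124 ± 21.3 at 0 h) and Larp4b (247 ± 3.62 CPM at 2 h, 202 ± 22.5 at 0 h), and the Larp4b call was lost without WT 2 h replicate 2, 3 or 4.

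Housekeeping lists differed in how many of their members were called. Of 85 ribosomal protein genes 3 rose and none fell, with a median of 0.02 and a range of -0.19 to 0.40, whereas 74 fell on the mitochondrial scale. At an unadjusted p under 0.05, 6 were higher and 1 lower, and DESeq2 called 5 higher and none lower. Of the 3 calls, that of Rps7 was lost without any 1 of 6 libraries (any but WT 0 h replicates 1 and 2) and that of Rps12 without any 1 of 7 (any but WT 2 h replicate 4). Rpl4 averaged 1853 ± 55.4 CPM at 2 h and 1649 ± 43.4 CPM at 0 h (FDR 0.0649). None of 74 oxidative phosphorylation genes encoded in the nucleus was called by edgeR or by DESeq2, and 2 were higher and 2 lower at an unadjusted p under 0.05, with a median of 0.01 (66 fell on the mitochondrial scale). Atp5b, a subunit of ATP synthase, averaged 1354 ± 25.4 CPM at 2 h and 1271 ± 67.7 CPM at 0 h. Proteasome genes had 1 rise among 37 and chaperone genes 3 among 32, with no fall (24 and 14 fell on the mitochondrial scale). The Psmd8 call was lost without WT 2 h replicate 1, that of Tcp1 without any 1 of 6 libraries (any but WT 0 h replicates 3 and 4) and that of Dnajb9 without WT 0 h replicate 1 or any 1 of the 2 h libraries. Translation factors had 10 rises and no fall of 38 (4 and 2 on library totals, 0 and 17 on the mitochondrial scale), including Eif1 (243 ± 30.4 CPM at 2 h, 167 ± 16.1 at 0 h) and Eif4a1 (818 ± 21.8 CPM at 2 h, 651 ± 44.2 at 0 h). Actin and tubulin genes had 11 rises and no fall of 29, but no rise and 10 falls on the mitochondrial scale. Actb averaged 3759.6 ± 62.4 CPM at 2 h and 2669 ± 297 CPM at 0 h (log2 fold change 0.49, SE 0.078, FDR 0.000818), and Vcl, which links actin to adhesions, averaged 387 ± 30.5 CPM at 2 h and 269 ± 23.7 CPM at 0 h. The glycolysis list had 2 falls and no rise of 18, by edgeR, by DESeq2 and at an unadjusted p under 0.05: Hk2 (224 ± 13.9 CPM at 2 h, 290.5 ± 11.4 at 0 h) and the glucose transporter Slc2a1 (646 ± 43.9 CPM at 2 h, 769 ± 51.6 at 0 h), whose call was lost without any 1 of 5 libraries. Among 24 genes of cholesterol synthesis and uptake 7 rose and none fell (1 and 12 on the mitochondrial scale). Synthetic enzymes that rose included Cyp51 (79.5 ± 1.503 CPM at 2 h, 51.8 ± 6.41 at 0 h) and Sqle (89.7 ± 4.76 CPM at 2 h, 66.9 ± 6.34 at 0 h). Of 27 integrated stress response genes 6 rose and 4 fell (1 and 17 on the mitochondrial scale). The regulator Atf4 (199 ± 9.79 CPM at 2 h, 119.5 ± 6.57 at 0 h) and the phosphatase subunit Ppp1r15a (69.2 ± 2.42 CPM at 2 h, 46.5 ± 5.69 at 0 h) rose, and the pseudokinase Trib3 (4.52 ± 1.70 CPM at 2 h, 8.92 ± 0.937 at 0 h) fell.

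Of the 13 mRNAs encoded in mitochondria 7 passed the filter on low counts, and 3 were called higher, with a median of 0.57. In WT their median was 1.02 at 4 h and 0.24 at 8 h. Over 2 h it was 0.59 in KO clone 2 and -0.57 in the libraries labelled KO clone 4. The rise was thus not seen in every set of libraries, which limits the mitochondrial scale as a reference. mt-Nd1 had 1570.2, 1782, 2119 and 1462 CPM at 2 h, against 723, 434, 1024 and 1171 CPM at 0 h (log2 fold change 1.05, SE 0.26, FDR 0.0178). mt-Cytb had 1209, 1385, 1459 and 1185 CPM at 2 h, against 752, 559, 961 and 1054 CPM at 0 h (log2 fold change 0.66, SE 0.16, FDR 0.0118). At 0 h the second replicate was the lowest for both genes. Without the first WT 0 h replicate the FDR was 0.0901 for mt-Nd1, 0.0545 for mt-Cytb and 0.104 for mt-Nd4, so these calls were lost without that library, and the mt-Nd4 call was also lost without WT 2 h replicate 2 or 3. The 13 mRNAs are part of what the mitochondrial scale divides by, and none of the 7 was called on it. The ribosomal RNA of mitochondria, mt-Rnr2, averaged 757 ± 105 CPM at 2 h and 295 ± 98.5 CPM at 0 h (FDR 0.00056). The line with the most counts in the table, the clone-named CT010467.1, averaged 20462 ± 4833 CPM at 2 h and 6236 ± 5667 CPM at 0 h and was not called (FDR 0.218). It and mt-Rnr2 were named after their values were seen.

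Among all genes tested, 252 are long non-coding in RefSeq, of which 14 were called higher and 34 lower. In the shorter list of long non-coding and small nucleolar RNA host RNAs, with 27 tested, only Malat1 rose. Malat1 had 1223, 1096, 1077 and 1112 CPM at 2 h, against 772, 640.3, 355 and 347 CPM at 0 h (log2 fold change 1.10, SE 0.22, FDR 0.0047). Its 0 h libraries separated into replicates 1 and 2, which were high, and replicates 3 and 4, which were low. The 4 that fell included the small nucleolar RNA hosts Snhg11 (20.7 ± 3.07 CPM at 2 h, 35.3 ± 4.86 at 0 h) and Zfas1 (15.2 ± 0.892 CPM at 2 h, 21.7 ± 0.609 at 0 h), and Meg3 (284 ± 40.8 CPM at 2 h, 367 ± 22.3 at 0 h), whose call was lost without WT 2 h replicate 1, 2 or 4. Rian averaged 453 ± 34.2 CPM at 2 h and 442 ± 59.2 CPM at 0 h and was not called. Chromatin regulators with long mRNAs had 5 rises and 2 falls of 32 (none and 23 on the mitochondrial scale). The acetyltransferase Crebbp (201 ± 16.8 CPM at 2 h, 142 ± 26.6 at 0 h) and Bptf (492 ± 27.2 CPM at 2 h, 391.9 ± 23.2 at 0 h) were among the rises, and Tet1 (49.6 ± 4.10 CPM at 2 h, 66.7 ± 6.47 at 0 h), which oxidises methylcytosine, was among the falls.

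Genes with large changes in either direction were short and of low level. The median gene length in the table was 5900 bases for the 195 genes at least 2-fold higher and 5039 for the 141 lower, against 8590.5 over all genes tested. The median span from first to last base in RefSeq was 11.5 and 8.76 kb, against 24.1 kb, with 92.8%, 97.2% and 97.9% of genes matched. At 0 h the median level was 7.49 CPM for the genes at least 2-fold higher and 5.29 for those lower, against 28.7 CPM. The part of low counts in this was not tested.

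The later times share the 0 h libraries with the 2 h comparison, so their values are given side by side and not as independent evidence. At 4 h 6092 of 13751 genes were called (44.3%) and at 8 h 6243 of 13668 (45.7%). For the AP-1 and Egr list the median log2 fold change was 2.31 at 2 h, 1.52 at 4 h and -0.15 at 8 h, with 16 of 17 called higher and none lower at 4 h, and 2 of 13 higher and 4 lower at 8 h. Of all genes 21.7% were called higher and 22.6% lower at 4 h, and 21.7% and 23.9% at 8 h. Egr1 had 3.94, 3.17 and -0.28 at 2, 4 and 8 h, Atf3 2.71, 3.12 and -0.39, and Myc 1.10, 1.17 and -0.72. Egr3, Fosb and Egr2 did not pass the filter on low counts at 8 h. Ptgs2 was still higher at 8 h, with 2.68, 3.03 and 2.16.

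The ERK feedback list had medians of 0.67, 0.73 and 0.00, with Dusp4 at 2.10, 2.52 and 0.69 and Dusp5 at 2.22, 2.22 and -0.23. The retinoic acid response list had medians of -0.22, -0.32 and -0.94, and Dhrs3 had -1.58, -2.56 and -4.84, Cyp26b1 -1.27, -2.21 and -4.54, and Hoxb1 -1.26, -1.91 and -4.12. Hox genes had medians of -0.84, -0.89 and -1.18. Other decreases were smaller again at 8 h: Ppp1r3c had -2.59, -3.51 and -1.20, and Ppp1r3b -1.60, -1.81 and -0.33. Numbered zinc finger genes had medians of -0.23, -0.31 and 0.11. The ribosomal protein median was 0.02 at 2 h, -1.66 at 4 h and -0.17 at 8 h, and in the same libraries their share of counts was 1.05 to 1.18% at 4 h, below both other times. In the libraries labelled KO that share was 0.984 to 1.02% at 4 h and 2.26 to 2.62% at 8 h. The 4 h values of the other lists come from the same WT libraries as this dip. Time and table coincide, and their parts in these values were not tested.

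**Figure D4:**
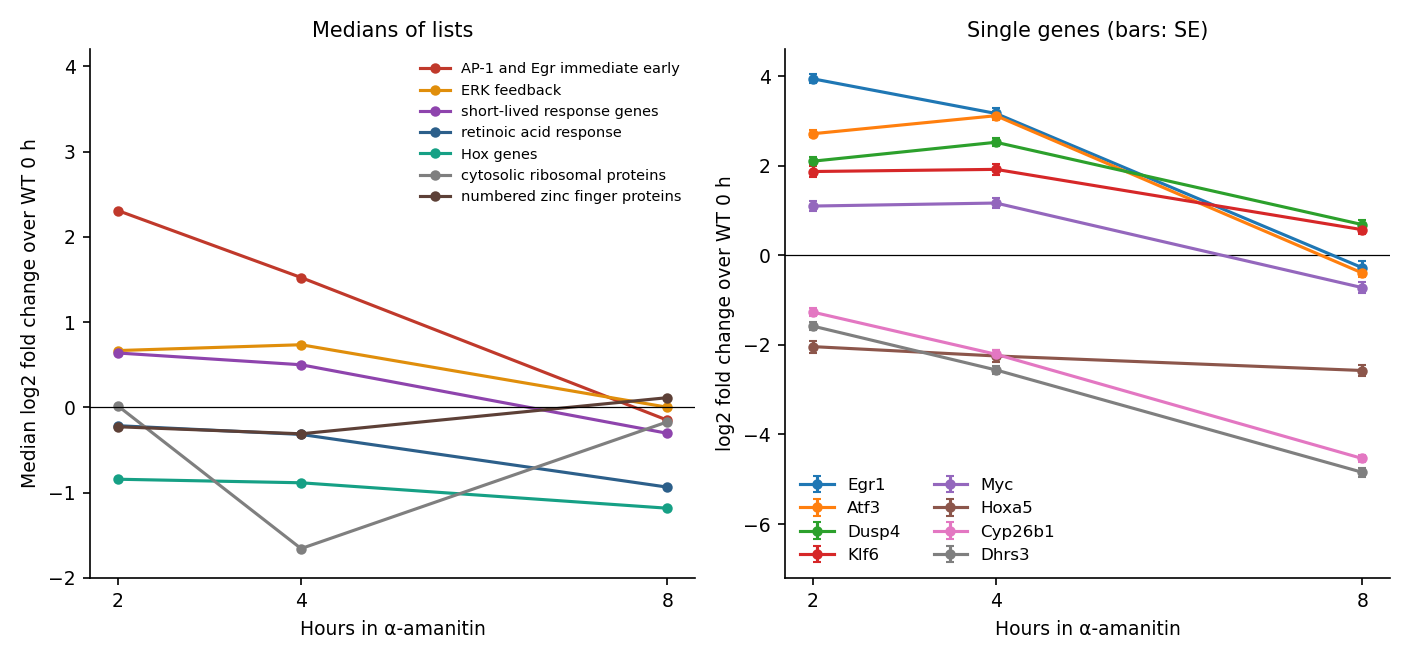
Left, median log2 fold change over WT 0 h (y) of 7 gene lists after 2, 4 and 8 h in α-amanitin (x, hours), and right, the log2 fold change of 8 genes with its standard error. The AP-1 and Egr median is 2.31 at 2 h and -0.15 at 8 h, while Cyp26b1 and Dhrs3 go below -4 at 8 h. All points share the same 0 h libraries.

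The Caprin1 KO clones give the same 2 h interval in libraries that are not shared with WT. Their counts come from the same deposited tables as those of WT, so time again coincides with table, and in these libraries with depth too. These libraries held 18.9 to 31.6 M counts at 0 h and 6.74 to 8.37 M at 2 h. The parts of time, table and depth cannot be told apart here. Caprin1 itself had 120 and 132 CPM of the unscaled library total in KO clone 2 at 2 h, against 931, 979, 1006 and 952 in WT at 2 h, and 104 and 104 in the clone at 0 h, against 919, 834, 1044 and 1065 in WT at 0 h. The libraries labelled KO clone 4 had 971 and 971 at 2 h and 1086 in the single one at 0 h, so their Caprin1 RNA stood at the level of WT. Whether the knockout allele leaves the RNA intact or the label is wrong cannot be decided from these counts. Nothing below is read as an effect of the knockout in the libraries labelled KO clone 4. In the fit over these 15 libraries, 1177 of 15148 genes were called for 2 h over 0 h in clone 2 (7.77%) and 466 in the libraries labelled KO clone 4 (3.08%).

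Of the 195 genes at least 2-fold higher in WT, 174 were above 0 in clone 2 (89.2%, against 46.3% of all genes). In clone 2, 110 of the 195 were called higher, against 687 of 13390 genes. In the libraries labelled KO clone 4, 189 of the 195 were above 0 (96.9%, against 49.2%). Their median log2 fold change was 0.88 in clone 2, 0.97 in the libraries labelled KO clone 4 and 1.34 in WT, where the genes had been chosen. Of the 141 lower genes, 126 were below 0 in clone 2 and 134 in the libraries labelled KO clone 4, against 53.7% and 50.8% of all genes below 0. Called lower were 50 and 30 of them, against 442 and 194 of 13390 genes. The medians of the 141 were -0.77 and -0.81, against -1.21 in WT. Over all 15148 genes the correlation with the WT change was 0.557 for clone 2 and 0.535 for the libraries labelled KO clone 4 (Pearson, across genes, which are not independent replicates). The AP-1 and Egr list had 14 of 17 members called higher in each of these sets (4.72% and 1.78% of all genes), with medians of 1.34 and 1.97. Hox genes had 11 of 32 called lower and none higher in each (3.05% and 1.29% of all genes lower), with medians of -0.70 and -0.63.

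The change over 2 h itself differed from WT for 92 genes in clone 2 (0.607%), 76 with a lower value in the clone (0.502%) and 16 with a higher one (0.106%), and for 10 in the libraries labelled KO clone 4 (0.066%), 9 lower (0.0594%) and 1 higher (0.0066%). Those libraries hold a single one at 0 h, which the fit assumes to vary like the libraries of the other groups, so their values rest on a spread taken from the rest. The first count was 41 to 58 without any 1 of the clone's own 4 libraries and 139 without the second WT 0 h replicate. The second was 3 without either of its 2 h libraries, 6 without the second WT 2 h replicate, and 24 and 18 without WT 0 h replicate 2 or 4. Maff changed by 0.53 in clone 2 and 1.77 in the libraries labelled KO clone 4, against 2.95 in WT (FDR of the difference 2.04e-07 and 0.0145). Bmp2 changed by -0.08 and 0.24, against 1.63 (FDR 2.04e-07 and 5.4e-05), and neither of these changes was itself called. Egr3 changed by 3.38 in clone 2, against 6.15 in WT (FDR 0.000744), while in the libraries labelled KO clone 4 it changed by 6.18. Arc changed by 0.26 in clone 2, against 2.57 (FDR 0.000102). Atf3 went further in clone 2, by 3.80 against 2.72 (FDR 0.000848). Sp8 changed by -0.78 in clone 2, against 1.27 in WT (FDR of the difference 9.17e-06). Dhrs3 changed by -0.58 in clone 2, against -1.58 in WT (FDR 0.00422), and Cyp26a1 by -0.27, against -0.82 (FDR 0.0352). Each clone is 1 line, so clone and genotype cannot be told apart.

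**Figure D5:**
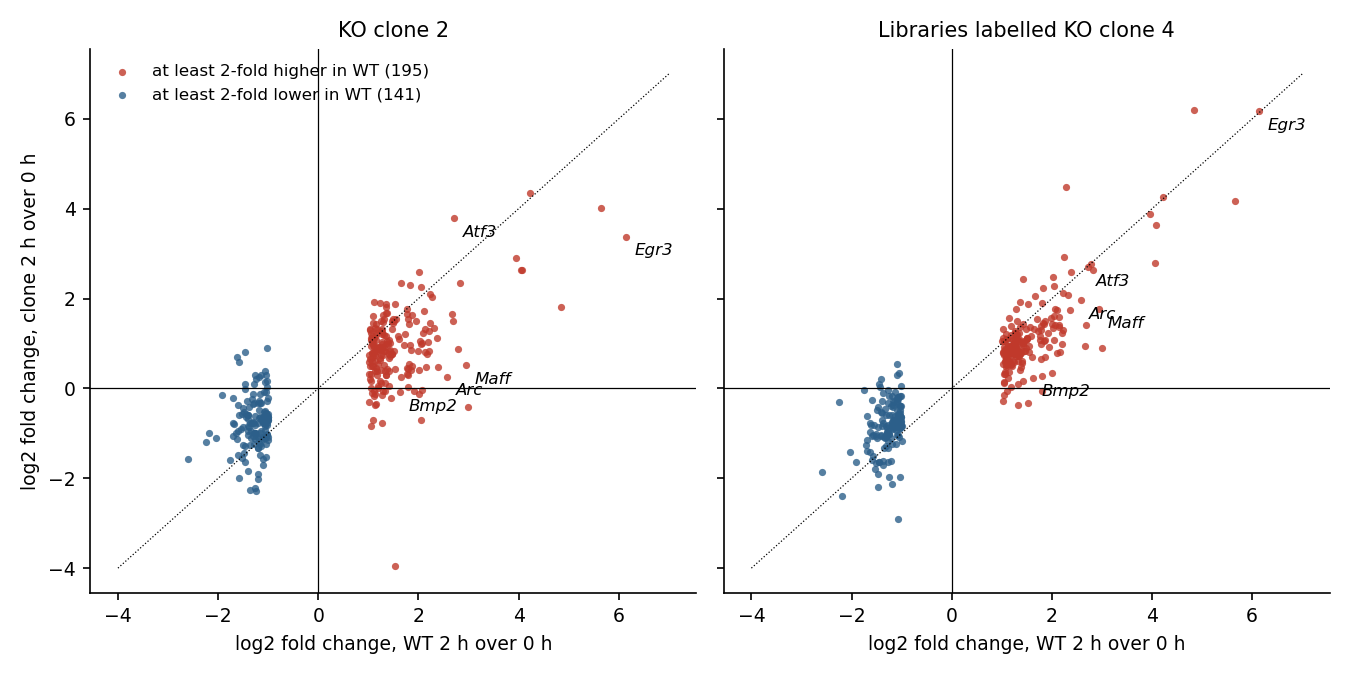
Log2 fold change of 2 h over 0 h in KO clone 2 (left, y) and in the libraries labelled KO clone 4 (right, y) against that in WT (x) for the 195 genes at least 2-fold higher in WT (red) and the 141 lower (blue), with the dotted line at equal change. Egr3, Arc, Maff and Bmp2 lie below the line in clone 2 and Atf3 above it.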

How the data were processed

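RNA-seq of R1 cells was analysed for 4 WT libraries at 2 h and 4 at 0 h, with the WT libraries at 4 h and 8 h and the Caprin1 KO libraries at 2 h and 0 h for comparison. The authors deposited, per the file headers, raw counts per gene in 1 table per time, beside a column of another kind, the gene length in bases. Per the labels, libraries were made with a KAPA stranded mRNA kit. The submitters' processing notes name STAR 2.4.0.1, TopHat, Cufflinks, Cuffdiff, DESeq2, FastQC 0.11.9 and GRCm38/mm10. Which program counted reads, with which annotation and whether by strand, is not given in the sources used here, so overlapping, antisense and near-identical genes are uncertain. Each table had 51520 lines, of which 110 repeats of an identifier were dropped, leaving 51410.

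Genes were kept by filterByExpr (minimum count 10) and fitted with the quasi-likelihood F test of edgeR 4.0.16 (R 4.3.3, limma 3.58.1, TMM, robust, 6 residual degrees of freedom). Calls have a Benjamini-Hochberg FDR under 0.05 over all genes tested, and tests are two-sided. CPM (counts per 10 to the power of 6) uses TMM-scaled library sizes, and SE comes from dividing the log2 fold change by the root of the F statistic. KO clones and WT at 2 h and 0 h were fitted together in 6 groups, and the KO clone 4 group at 0 h is 1 library. The fit was also run on simulated counts, drawn from the 0 h means with the same spread for every gene. These lacked the split between replicates seen at 0 h, so they give no error rate for data with that split. Alternatives were DESeq2 1.42.0, other scalings, filters, blocks, sample sets, thinning and leaving out each library. Tables and figures used Python 3.11.15, numpy 2.4.6, pandas 2.3.3 and matplotlib 3.10.9.

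Genes named are the 12 largest increases and decreases among called genes whose mean reached 5 CPM, leaving out predicted and clone-named ones, 6 fixed genes (Polr2a, Myc, Pou5f1, Nanog, Hexim1 and Caprin1), and, for each of 35 lists, up to 4 called members at a mean of at least 1 CPM with the lowest FDR and the member not called with the highest mean. Some results for genes that this rule or the lists would name are not reported here. Further members are named to fill out a list, after their values were seen. The members, lists and tests were chosen with earlier results of these data known. A promoter window is 250 bases before to 50 after a start, from RefSeq GRCm38.p6.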

Additional observations from a re-analysis of the deposited data

Results flagged for a closer look

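For 19 of 324 groups of 4 libraries of the named genes, 1 library lay far from the other 3 (chance flags about 1 in 20 groups). Values are in TMM-scaled CPM, with the range of the other 3 libraries after each. The second replicate of WT at 2 h was high for Ppp1r3b (10.2 against 7.62 to 7.87) and low for Egr1 (194 against 218 to 222) and Maff (73.3 against 85.7 to 87.9). The third replicate of WT at 2 h was high for Twist2 (2.43 against 1.41 to 1.48) and low for Aff1 (170.1 against 184 to 185) and Vim (1147 against 1258 to 1278). The fourth replicate of WT at 2 h was high for Bhlhe40 (89.6 against 75.01 to 75.8) and Wee1 (142 against 127 to 129.5) and low for Rpl35 (122 against 163 to 169), Rpl4 (1771 against 1869 to 1888) and Hsp90ab1 (4347 against 4579 to 4607). The first replicate of WT at 0 h was high for Nppb (1.71 against 0.573 to 0.692), Nog (13.9 against 6.47 to 7.55), Tbx3 (348 against 328 to 331), Cdk12 (145 against 132 to 134), Rps7 (219 against 211 to 212) and Twist1 (54.98 against 37.1 to 39.9) and low for Il17rd (102 against 109.8 to 110.5) and Nr1d1 (4.89 against 5.75 to 5.89).

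The log2 change over 2 h differed between KO clone 2 and WT (edgeR interaction term, FDR under 0.05) for 23 named genes. Below WT were Klf4 by -0.59 (0.11 in the clone, 0.71 in WT), Dusp6 by -0.71 (0.77 in the clone, 1.48 in WT), Timp3 by -1.07 (0.29 in the clone, 1.36 in WT), E2f7 by -0.66 (-0.10 in the clone, 0.56 in WT) and Id4 by -1.39 (0.78 in the clone, 2.16 in WT). Also below WT were Arc by -2.31 (0.26 in the clone, 2.57 in WT), Ankrd1 by -1.005 (1.66 in the clone, 2.67 in WT), Bmp2 by -1.71 (-0.08 in the clone, 1.63 in WT), Bhlhe40 by -0.68 (-0.57 in the clone, 0.10 in WT) and Ptgs2 by -1.18 (1.51 in the clone, 2.69 in WT). Also below WT were Csrnp1 by -1.04 (0.38 in the clone, 1.42 in WT), Egr3 by -2.77 (3.38 in the clone, 6.15 in WT), Dusp5 by -0.95 (1.27 in the clone, 2.22 in WT), Egr1 by -1.06 (2.89 in the clone, 3.95 in WT) and Ppp1r15a by -0.85 (-0.27 in the clone, 0.58 in WT). Also below WT were Maff by -2.42 (0.53 in the clone, 2.95 in WT), Sp8 by -2.05 (-0.78 in the clone, 1.27 in WT) and Nog by -1.38 (-0.05 in the clone, 1.34 in WT). Above WT were Tbx3 by 0.82 (0.39 in the clone, -0.43 in WT), Cyp26a1 by 0.55 (-0.27 in the clone, -0.82 in WT), Atf3 by 1.08 (3.80 in the clone, 2.72 in WT), Ciart by 1.498 (-0.20 in the clone, -1.70 in WT) and Dhrs3 by 0.99 (-0.58 in the clone, -1.58 in WT).

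The log2 change over 2 h differed between the libraries labelled KO clone 4 and WT (edgeR interaction term, FDR under 0.05) for 8 named genes. Below WT were Cdk12 by -0.69 (0.19 in those libraries, 0.88 in WT), Ankrd1 by -1.71 (0.95 in those libraries, 2.67 in WT), Dkk1 by -0.75 (-0.14 in those libraries, 0.61 in WT), Bmp2 by -1.39 (0.24 in those libraries, 1.63 in WT) and Ash1l by -0.72 (-0.39 in those libraries, 0.33 in WT). Also below WT were Ptgs2 by -1.27 (1.42 in those libraries, 2.69 in WT), Maff by -1.18 (1.77 in those libraries, 2.95 in WT) and E2f8 by -0.77 (0.37 in those libraries, 1.14 in WT). In these libraries the Caprin1 RNA stood at the level of WT, and their 0 h group is 1 library.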

How the results depend on the processing

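Of the 2465 genes called, the count ranged from 1615 to 2684 when 1 library was left out, with 740 to 1272 lower, 854 to 1412 higher, 136 to 154 at least 2-fold lower and 189 to 230 at least 2-fold higher. The 4 h count ranged from 5084 to 6061 and the 8 h count from 5163 to 6523. The count for clone 2 minus WT ranged from 41 to 139, and that for the libraries labelled KO clone 4 from 3 to 24. Where a group was left with 1 library, that library was assumed to vary like the others.

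Deviations of same-numbered libraries correlated at 0.178, -0.026, 0.200 and -0.041. Those of 2 h replicate 1 correlated at 0.178, 0.252, -0.269 and -0.243 with 0 h replicates 1 to 4. For 2 h replicate 3 the values were -0.151, -0.261, 0.200 and 0.280. For 2 h replicates 2 and 4 they lay between -0.048 and 0.068. Part of the libraries thus shared a split of replicates 1 and 2 from 3 and 4, which the main fit leaves out. With a replicate block, 2872 genes were called, 145 for clone 2 minus WT and 45 for the libraries labelled KO clone 4. Replicates 1 and 2 against 3 and 4 as a block gave 3860 (1917 lower, 1943 higher), and replicates 1 and 2 alone 3905 (2230 higher).

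The 16 WT libraries fitted together gave 1841 lower and all 31 libraries 787. Without a filter, 246 genes were at least 2-fold lower and 373 higher. Library totals gave 2419 lower, 213 of them at least 2-fold, and 807 higher. Ribosomal protein scaling gave 784 higher. The mitochondrial scale gave 8901 calls (8820 lower, 2908 of them at least 2-fold, and 81 higher, 56 of them at least 2-fold). For the libraries labelled KO clone 4 minus WT, DESeq2 gave 67 and the fit with only WT and these libraries 3. Except by construction of the scales, the cause was not tested.

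Of 162 named genes, 65 changed sign, all on the mitochondrial scale, where the log2 values were Hexim1 -0.74, Mcl1 -0.70, Notch2 -0.68, Mxd1 -0.11, Mga -0.64, Il17rd -0.72, Bmp4 -0.20, Dkk1 -0.14, Fzd7 -0.73, Klf4 -0.074, Nes -0.22, Foxa2 -0.086, Cdkn1a -0.26, Polr2m -0.55, Larp7 -0.35, Aff1 -0.40, Ell2 -0.085, Supt6 -0.70, Srsf5 -0.19, Clk4 -0.024, Clk3 -0.39, Srsf6 -0.36, Upf3a -0.30, Nufip2 -0.23, Ddx3x -0.16, Larp4b -0.45, Nfil3 -0.010, Bhlhe40 -0.63, E2f7 -0.22, Wee1 -0.13, Atf4 -0.036, Ppp1r15a -0.22, Sesn2 -0.64, Cyp51 -0.12, Sqle -0.31, Srebf2 -0.67, mt-Cytb -0.013, mt-Nd4 -0.15, Rpl35 -0.38, Rps7 -0.55, Rps12 -0.56, Atp5b -0.68, Eif1 -0.22, Eif4a1 -0.42, Eif3a -0.48, Eif1a -0.10, Eef2 -0.72, Psmd8 -0.50, Psmd2 -0.71, Pkm -0.78, Hspa9 -0.46, Dnajb9 -0.089, Tcp1 -0.43, Vcl -0.25, Actb -0.30, Tagln2 -0.40, Tpm4 -0.34, Tubb5 -0.67, Vim -0.42, Twist1 -0.43, Acta2 -0.68, Rian -0.67, Bptf -0.45, Ash1l -0.41 and Crebbp -0.30. Library totals left 148 on the same side of the threshold and in the same direction, and thinning to 3.95 M counts (M, 10 to the power of 6) 156. Depth limits low genes most: libraries of 3.95 to 22.7 M counts give few reads to genes near 1 CPM.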

Other observations

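Some lines of the table that belong to no list had a mean level that was higher at 2 h by more than 2-fold. They were chosen after their values were seen. Lars2, a mitochondrial leucyl-tRNA synthetase gene, averaged 1915 ± 708 CPM at 2 h and 495 ± 356 CPM at 0 h (log2 fold change 1.96, FDR 0.0817). Rn7sk, the RNA that holds P-TEFb inactive and is made by RNA polymerase III, averaged 42.9 ± 28.1 CPM at 2 h and 18.1 ± 14.1 CPM at 0 h (log2 fold change 1.36, FDR 0.262). Neither was called, and for both the libraries of a group spread widely.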
